A study of Mus musculus with 2 samples.

Results

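The slit diaphragm complex genes are described here probe set by probe set in glomeruli of male KK/Ta mice. Members were selected by gene symbol: every probe set that the platform annotation assigned to exactly 1 of the 9 genes Nphs1, Kirrel, Kirrel2, Kirrel3, Cd2ap, Magi2, Tjp1, Fat1 and Trpc6 was taken. This gave 12 probe sets for 7 of the 9 genes, out of 34945 probe sets that named a single gene. Kirrel2 and Magi2 have no expression values here, because no probe set was assigned to either of them alone. KK/Ta is an inbred strain prone to obesity and type 2 diabetes. The groups were KK/Ta males on a high-fat diet (HFD) and KK/Ta males on normal chow (Chow), both 20 weeks old, with 1 Mouse Genome 430 2.0 array for each diet. The design text mentions 3 mice, and the labels do not say how animals relate to arrays. Every difference below therefore compares 2 RNA preparations, with no replicate check, no error and no p-value.

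The slit diaphragm is the cell junction that bridges neighbouring foot processes of podocytes, the epithelial cells that cover the glomerular capillaries. Nephrin (Nphs1) and the Kirrel proteins are immunoglobulin-superfamily adhesion molecules that meet across the slit. Their cytoplasmic tails are tied to the actin cytoskeleton and to signalling proteins by scaffolds such as CD2AP and ZO-1 (Tjp1), and the cation channel TRPC6 sits in the same complex. Loss of nephrin or of CD2AP leads to proteinuria in mice.

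The 300-base windows around the RefSeq transcript starts of Nphs1 and Cd2ap (250 bases before the start and 50 after, build GRCm38.p6) are printed because these 2 genes mark the ends of the diet comparison below, Cd2ap with the lowest difference and Nphs1 with the highest. Capitals mark GC boxes (GGGCGG or CCGCCC) and E-boxes (CANNTG), searched on both strands. No capitals of one motif overlap those of the other. The Cd2ap window lies on the minus strand at chr17:42876375-42876674 and the Nphs1 window on the plus strand at chr7:30459808-30460107.
Cd2ap: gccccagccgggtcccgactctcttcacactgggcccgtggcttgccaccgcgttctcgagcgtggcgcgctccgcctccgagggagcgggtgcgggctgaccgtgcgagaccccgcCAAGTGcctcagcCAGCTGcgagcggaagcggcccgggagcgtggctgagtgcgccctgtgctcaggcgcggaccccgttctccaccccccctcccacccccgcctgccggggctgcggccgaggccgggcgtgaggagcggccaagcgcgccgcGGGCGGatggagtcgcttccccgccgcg
Nphs1: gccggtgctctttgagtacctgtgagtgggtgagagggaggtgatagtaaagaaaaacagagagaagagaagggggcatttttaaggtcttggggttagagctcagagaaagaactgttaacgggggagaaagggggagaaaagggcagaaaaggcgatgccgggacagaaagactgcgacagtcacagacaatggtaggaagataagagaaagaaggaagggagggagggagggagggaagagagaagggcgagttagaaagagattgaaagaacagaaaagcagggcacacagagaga

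The Cd2ap window was 77.0% G or C and held 41 CpG dinucleotides, 1 GC box and 2 E-boxes. The Nphs1 window was 49.7% G or C, held 6 CpG and neither motif, and consisted of G or A for 77.7% of its bases on the printed strand. Among all 32851 windows of this length the median was 52.7% G or C with 7 CpG, 35.7% held a GC box and 72.3% an E-box. Windows were found for 8 of the 9 genes, 9 windows in all, since Magi2 had 2 starts. Of these 9, a GC box was present in 5 and an E-box in 5, and the TATA box (TATAAA or TTTATA, 13.6% of all windows) in 0. G or C content ran from 42.7% (Fat1) to 77.0% (Cd2ap). The Kirrel2 window (minus strand, chr7:30457466-30457765) and the Nphs1 window lie on opposite strands, 2042 bases apart. A motif match is a description of letters and no evidence of binding.

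No slit diaphragm probe set differed by as much as 1.5-fold between the diets among those above the floor. The floor was each array's median signal (42.3 on the array from HFD mice, 44.9 on that from Chow mice). A probe set under the floor on both arrays gave no difference. Where 1 array alone was under the floor, its signal was raised to the floor and the difference is a bound. Of the 12 probe sets, 8 (6 genes) were above it on both arrays and 4 were under it on both. At least 1.5-fold differences were seen in 0 of the 8, where 6.24% of all 23419 probe sets above the floor on at least 1 array passed that size. At least 2-fold differences were seen in 0 of the 8, against 0.91% of all. Cd2ap stood lowest, by 1.15-fold to 1.26-fold over its 3 probe sets, and the other 5 probe sets lay between -0.06 and 0.08 log2 units.

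**Figure D1:**
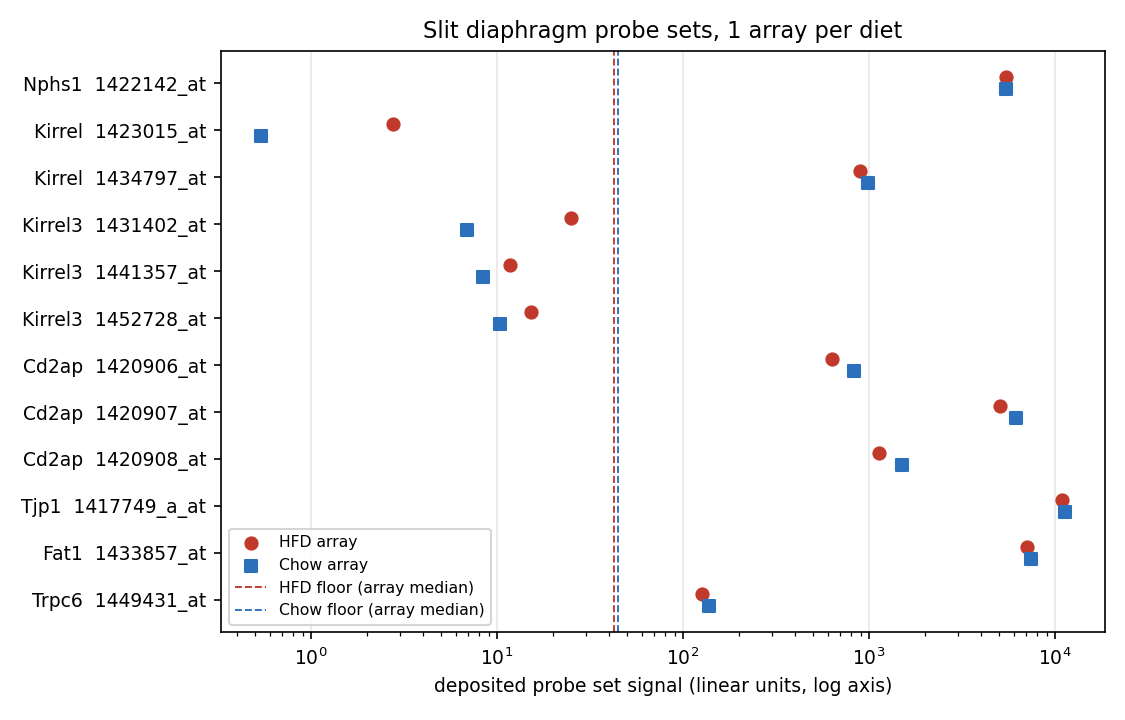
Deposited signal of the 12 slit diaphragm probe sets (log axis) on the HFD array (circles) and the Chow array (squares), with each array's floor as a dashed line. The 3 Kirrel3 probe sets and 1 Kirrel probe set lie left of both floors, and the symbols of Nphs1, Tjp1, Fat1 and Trpc6 nearly coincide.

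Among the adhesion molecules, Nphs1, which encodes nephrin, had a signal of 5421 with HFD and 5427 with Chow. These signals were 128 and 121 times the floor of their own array. After each array was centred on its median, the HFD minus Chow difference of Nphs1 was 0.08 log2 units, and it was -0.0015 in the deposited values, so its sign rests on the centring. Kirrel encodes NEPH1, the partner that binds nephrin. Its probe set 1434797_at read 889 with HFD and 983 with Chow, a centred difference of -0.06. The other Kirrel probe set, 1423015_at, read 2.74 with HFD and 0.538 with Chow. It was far under the floor on both, so only the first probe set gave a difference.

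Kirrel3 encodes NEPH2, best known from neurons and also reported at the slit diaphragm. All 3 of its probe sets were under the floor on both arrays. Probe set 1431402_at read 25.1 with HFD and 6.92 with Chow. Probe set 1441357_at read 11.7 with HFD and 8.42 with Chow, and 1452728_at read 15.2 with HFD and 10.3 with Chow. Each of the 3 was higher on the HFD array, but at signals where no difference could be measured. Without a floor, 3 of the 12 member probe sets were at least 1.5-fold apart, all of them among these dim Kirrel and Kirrel3 probe sets, with 1431402_at at 1.94 log2 units. The share of all probe sets that passed without a floor was not computed, so this count has no background. Kirrel3 transcript was thus not detectable above the floor with these probe sets, which does not show that it was absent. Of 8 neuronal marker genes, 5 were under the floor on both arrays, as were 37.6% of all 18193 genes. Of the other 3, Rbfox3 read 443 with HFD and 279 with Chow (0.75 log2 units), Gad1 read 112 with HFD and 70.03 with Chow (0.76), and Stmn2 read 133 with HFD and 184 with Chow (-0.38).

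Among the cytoplasmic adaptors, Cd2ap was lower on the HFD array in each of its probe sets. It encodes CD2-associated protein, which binds nephrin and links it to actin and to PI3-kinase signalling. Probe set 1420907_at read 5090 with HFD and 6198 with Chow, a difference of -0.20 log2 units (1.15-fold lower). Probe set 1420906_at read 636 with HFD and 835 with Chow (-0.31, 1.24-fold lower), and 1420908_at read 1131 with HFD and 1513 with Chow (-0.34, 1.26-fold lower). The 3 probe sets were annotated with the same accession and are repeated readings of 1 gene in the same 2 preparations, not replicates of the diet. All 3 were lower in 192 of 1233 genes that had 3 probe sets above the floor on both arrays (15.6%), so agreement of this kind was not rare.

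For 1420906_at and 1420908_at the Cd2ap difference was near the edge of what probe sets of like signal showed. The brightest Cd2ap probe set, 1420907_at, lay further inside. Probe sets above the floor on both arrays were ranked by mean signal and cut into 10 equal groups. Within a group, the 5th and 95th percentiles of the HFD minus Chow difference describe noise and real differences together. For 1420908_at these were -0.31 and 0.35, and the probe set lay just below the lower one. For 1420906_at they were -0.31 and 0.39, and for 1420907_at -0.26 and 0.31, and both probe sets lay inside. Of the 8 member probe sets, 7 lay inside their range. Each range holds 90% of its group by construction, so 7 of 8 is near the share of all probe sets.

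**Figure D2:**
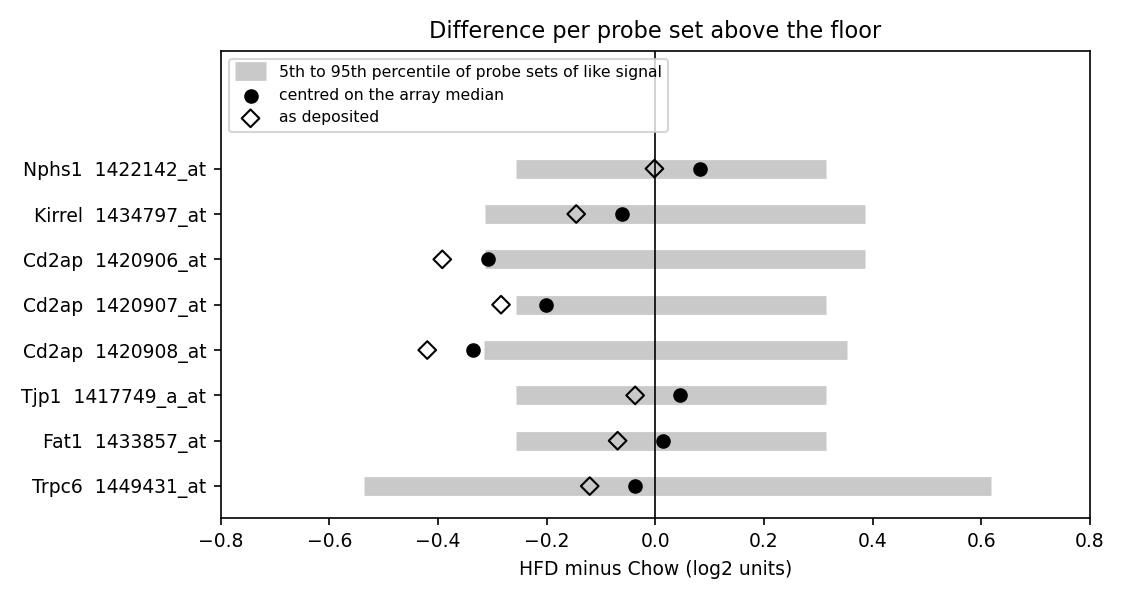
HFD minus Chow difference (log2 units) of the 8 slit diaphragm probe sets above the floor, centred on the array median (filled circles) and as deposited (open diamonds). Grey bars span the 5th to 95th percentile of probe sets of like signal. The 3 Cd2ap probe sets lie at -0.20 to -0.34 when centred, and 1420908_at is the one outside its bar.

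Tjp1 encodes ZO-1, a scaffold of tight junctions that is found in many epithelia and endothelia and joins the Kirrel proteins to actin in podocytes. Its single probe set, of a type that can match several transcripts of 1 gene, read 10969 with HFD and 11255 with Chow. The centred difference was 0.05 log2 units, against -0.04 as deposited. Fat1 encodes a giant protocadherin of the slit diaphragm that is also made by other epithelia. It read 7066 with HFD and 7414 with Chow, with a centred difference of 0.01 and a deposited one of -0.07. For neither gene did the direction hold under both scalings, and both differences were smaller than the scaled median absolute deviation of probe sets of like signal (0.16).

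Trpc6 encodes a calcium-permeable cation channel whose gain-of-function mutations cause focal segmental glomerulosclerosis in humans. Its probe set was close to the floor, with a signal of 126 with HFD and 138 with Chow, about 2.99 and 3.07 times the floor. The centred difference was -0.04 log2 units. At this signal the 5th and 95th percentiles of like probe sets were -0.54 and 0.62, so a difference of moderate size in Trpc6 could not have been told from the scatter.

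Over the 8 probe sets the median difference was -0.05 log2 units, beside 0.04 for all 23419 probe sets above the floor on at least 1 array. Of the 8, 3 were higher and 5 lower, of which 3 belong to Cd2ap. Lower values made up 43.4% of all probe sets. In the deposited values, without centring, all 8 were lower on the HFD array, where 57.9% of all probe sets above the floor on both arrays were lower. Centring added 0.083 to every difference.

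The partners of the complex were compared through 4 lists, with each gene represented by its brightest probe set. Of 24 slit diaphragm adaptors and kinases above the floor, 10 were higher and 14 lower on the HFD array. Among all 11356 genes above the floor, 37.8% were lower. At least 1.5-fold differences were seen in 0 of the 24, against 5.62% of all those genes. The median of the list was -0.03 log2 units, beside 0.06 for all genes. The 3 with the largest difference were lower. Cask, a membrane scaffold of the guanylate kinase family, read 466 with HFD and 619 with Chow (-0.33), but 2 further Cask probe sets differed by 0.15 and 0.29, and another, above the floor with Chow alone, by a bound of -0.26. Cblb, a ubiquitin ligase, read 839 with HFD and 1107 with Chow (-0.32), with further probe sets at -0.31 and 0.04. Pard6b, a polarity protein, read 1138 with HFD and 1499 with Chow (-0.31), and its second probe set stood at -0.52.

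Proteins that act directly on the nephrin tail were named after their values were seen. Fyn, the kinase that phosphorylates nephrin, read 1876 with HFD and 1946 with Chow, a centred difference of 0.03. The adaptors Nck1 and Nck2, which bind phosphorylated nephrin, differed by -0.08 and -0.13. Pik3r1, a regulatory subunit of PI3-kinase, differed by 0.23. None of these 4 reached 1.5-fold.

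Closest relatives of the members were a mixed group. Of 12 paralogues with a probe set, 7 passed the floor on 1 array or both, 4 higher and 3 lower, and their median was 0.13. Among all genes above the floor, 37.8% were lower, 5.62% passed 1.5-fold and the median was 0.06. Of the 6 paralogues above the floor on both arrays, none reached 1.5-fold. The seventh, Trpc2, read 36.3 with HFD and 64.1 with Chow and was above the floor with Chow alone. It could only count as lower, by at least 1.43-fold, and entered the median as a bound. It is named after its value was seen. Without a floor, 3 paralogues were at least 1.5-fold apart, a count for which the share of all genes was not computed. Sh3kbp1, the adaptor most similar to Cd2ap, read 879 with HFD and 739 with Chow (0.33), opposite in direction to Cd2ap, and its dimmer probe sets at 0.37, 0.07 and -0.29 did not share 1 direction. Magi1, a scaffold related to Magi2, stood at 0.50 at a low signal (77.4 with HFD and 57.8 with Chow). Trpc4, a cation channel, stood at 0.18. The paralogues Tjp3, Fat2, Fat3, Trpc5 and Trpc7 were under the floor on both arrays.

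Junction and catenin partners had 8 genes above the floor, 4 higher and 4 lower, and their median was 0.02. None of them differed by 1.5-fold or more (0 of 8). Among all genes above the floor, 5.62% passed that size, 37.8% were lower and the median was 0.06. Ctnnb1, encoding beta-catenin, stood at 0.14 with 2 further probe sets at 0.14 and 0.17. Mpp5, a polarity scaffold of the Crumbs complex, was lower in all 3 probe sets (-0.19, -0.16 and -0.29), and Afdn, encoding afadin, stood at 0.17. The list of TRPC6 calcium signalling through calcineurin and NFAT had 13 genes above the floor, 9 higher and 4 lower. None of these 13 differed by 1.5-fold or more (0 of 13, beside 5.62% of all genes). Their median was 0.06, and 37.8% of all genes were lower. Rcan1, a calcineurin inhibitor that is itself an NFAT target, stood at 0.25, with a second, dim probe set at -0.0010. Nfatc4 stood at 0.21. Camk2d, a calcium-dependent kinase, stood at -0.17. Its further probe sets above the floor on both arrays did not share 1 direction (-0.47 to 0.32). Another Camk2d probe set, above the floor with Chow alone, differed by a bound of -0.49.

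**Figure D3:**
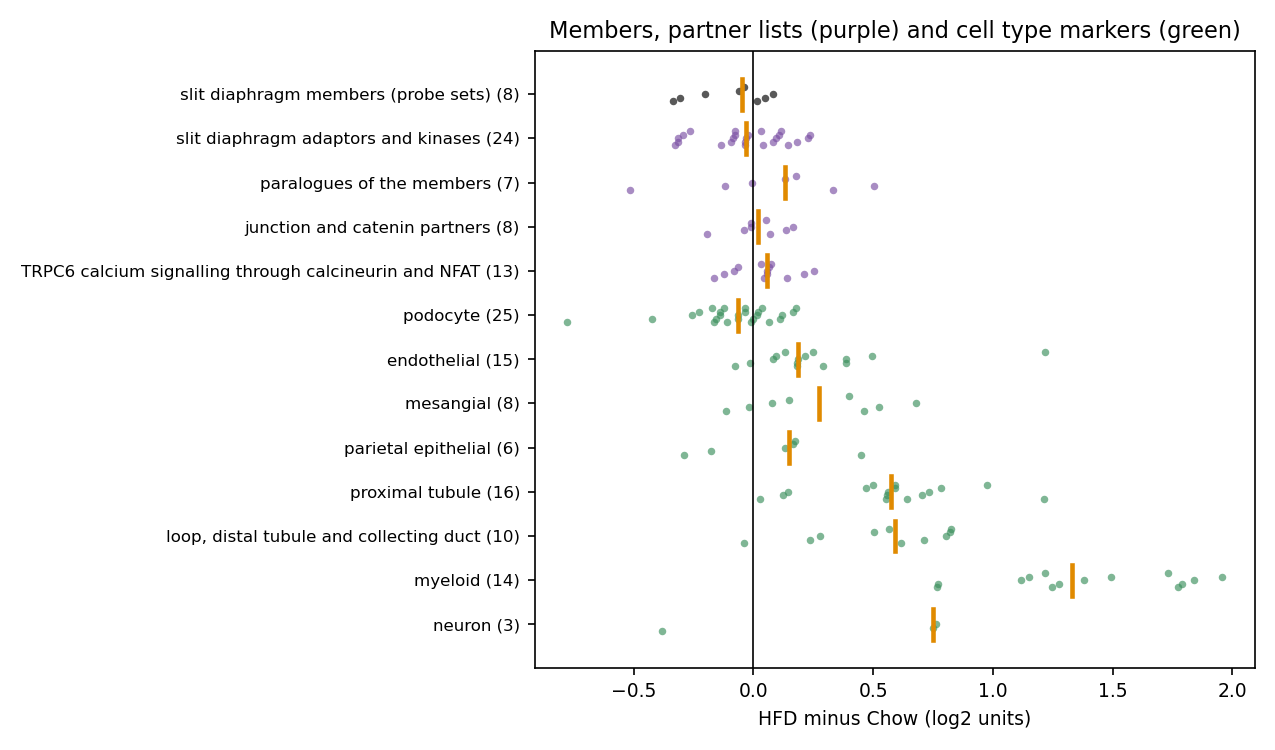
HFD minus Chow difference (log2 units) of the slit diaphragm probe sets (black), of the genes of 4 partner lists (purple) and of 8 cell type marker lists (green), with the number plotted in parentheses and the median as an orange bar. Genes above the floor on 1 array are plotted at their bound. Members (median -0.05) and podocyte markers (-0.06) sit near 0, and the medians of tubule, myeloid and neuron markers (3 neuron genes) lie to the right.

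Marker lists of several other cell types had larger median differences than the slit diaphragm genes. Podocyte markers were present at high signal: 25 of 25 with a probe set were above the floor, 8 higher and 17 lower, 1 of them (Dach1) lower by more than 1.5-fold. That size was passed by 5.62% of all genes above the floor. Dach1 stood at -0.78 in its brightest probe set and at -0.20 and -0.58 in the others. When a gene took the middle value of its probe sets, 0 podocyte markers passed 1.5-fold. Lower values made up 37.8% of all genes above the floor. The podocyte median was -0.06, and the list had a summed signal of 151001 with HFD and 163808 with Chow. Proximal tubule markers were higher in 16 of 16 genes (median 0.58, summed signal 23659 with HFD and 16488 with Chow). Distal markers (loop of Henle, distal tubule, collecting duct) were higher in 9 of 10 (median 0.59, summed signal 9918 with HFD and 7079 with Chow), with Cldn16 and Scnn1g under the floor. Of these 10, Scnn1b passed the floor with HFD alone, so it could only count as higher. Myeloid markers were higher in 14 of 14 (median 1.33, summed signal 6281 with HFD and 2518 with Chow), with Itgam under the floor, and several of them had been picked from earlier results of these arrays. Only 11 of the 14 were above the floor on both arrays. Cd68, C1qa and C1qb passed it with HFD alone, so they could only count as higher and entered the median as bounds. Endothelial markers were higher in 13 of 15 (median 0.19) and mesangial markers in 6 of 8 (median 0.27). Parietal epithelial markers were higher in 4 of 6 (median 0.15), with Cdh6 above the floor with HFD alone. The part of these cell types in the Cd2ap, Tjp1 and Fat1 values, genes that are not limited to podocytes, was not tested. Fewer podocytes, less RNA per podocyte and a larger share of RNA from other cells cannot be told apart in such preparations. When differences were centred on the podocyte markers instead of all probe sets, Cd2ap stood at -0.24, -0.14 and -0.27, Nphs1 at 0.15 and Kirrel at 0.0024.

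**Figure D4:**
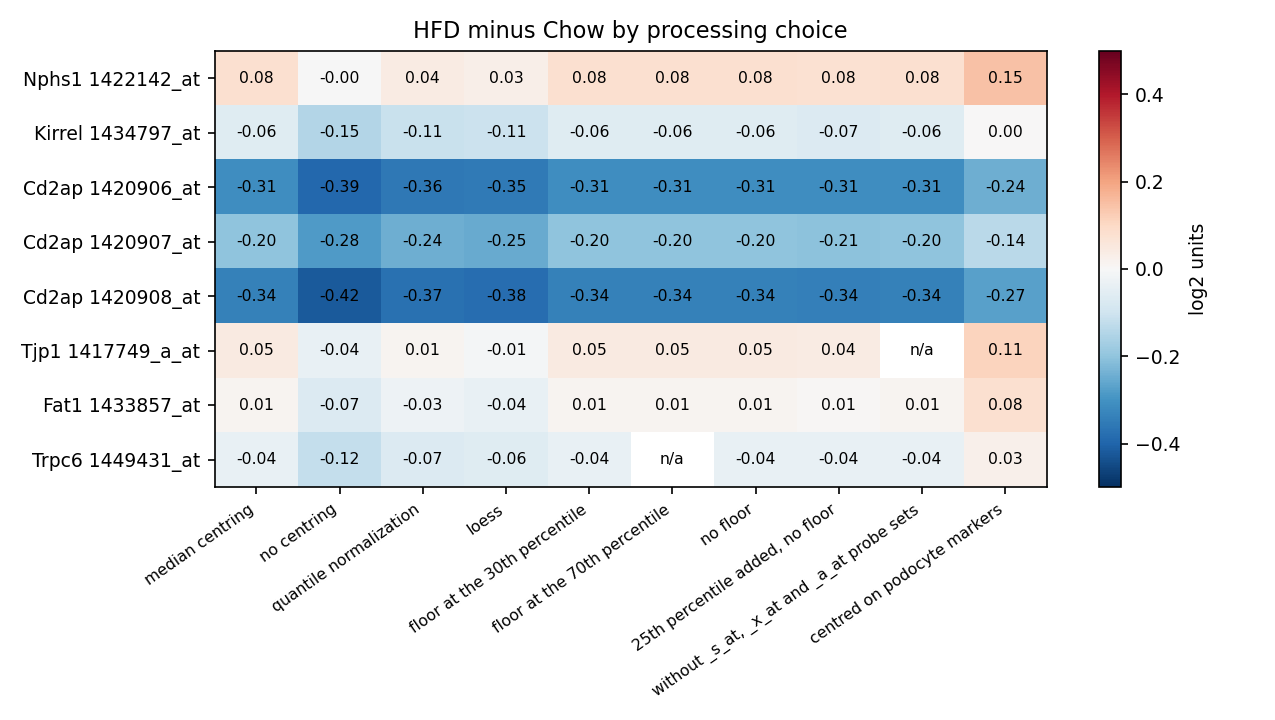
HFD minus Chow difference (log2 units) of the 8 slit diaphragm probe sets under median centring and 9 other processing choices, red for higher and blue for lower on the HFD array. The Cd2ap rows are blue throughout, and the other rows stay pale. A cell marked n/a has no value, because the probe set was left out or was under the floor.

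Cd2ap was lower in each of its 3 probe sets under the 5 of 9 alternatives that altered its values, which were those on centring, normalization and the added 25th percentile. The other alternatives concern the floor and the probe set type and could not alter them. Leaving out the centring, or centring on podocyte markers, moved these differences by a fixed amount too small to change their sign. The 3 ranges were -0.28 to -0.14 for 1420907_at, -0.39 to -0.24 for 1420906_at and -0.42 to -0.27 for 1420908_at. The probe sets above the floor of Nphs1, Kirrel (1434797_at), Tjp1, Fat1 and Trpc6 each changed sign under at least 1 choice, and none of their values exceeded 0.15 log2 units in size.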

How the data were processed

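Per the labels' protocols, RNA from isolated glomeruli was purified with a Qiagen RNeasy kit, amplified by two-cycle labelling and hybridised to Affymetrix arrays. The authors deposited linear probe set intensities, 1 column per array; the probe summary and scaling are not stated in the sources used here, and there are no detection calls. The series design text names GeneSpring 7.3.1. Of 45101 probe sets, 64 controls were left out. Values were put on the log2 scale, centred on each array's median, and floored at that median (50th percentile) before differences were taken. The 2016 platform annotation named 1 gene for 34945 probe sets, several for 932 and none here for 9160. Promoter windows are RefSeq's for GRCm38.p6.

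With 1 array per diet no test was run; the number of arrays limits precision. Features were counted by size (1.5-fold and 2-fold). All members were named, with the 3 largest differences above the floor on both arrays in each list; Fyn, Nck1, Nck2 and Pik3r1 were added later. Members and lists were chosen with earlier results of these data known. The calculation was tested on simulated data. Alternatives covered centring, normalization (quantile, loess with span 0.3), floors (30th and 70th percentile, none), adding the 25th percentile before the log2, and probe set choice. Python 3.11.15, numpy 2.4.6 and pandas 2.3.3 were used.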

Additional observations from a re-analysis of the deposited data

How the results depend on the processing

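Of 181 recomputed values for the members and the 4 partner lists, 147 stayed close to the reported value (single probe sets within the scatter of like signal, whatever their sign, medians within 0.1 log2 units and on the same side of 0, counts within 1.5 times) and 34 did not. Many of the 147 were fixed in advance. For member probe sets above the main floor, the floor and probe set type settings gave the same value or none. Leaving out the centring moved each by 0.083 and centring on podocyte markers by 0.06, less than the scatter allowed (0.16 to 0.32). The probe sets under the floor gave differences only when the floor was lowered or removed, so no reported difference exists for them. Their values were set against 0 with a tolerance of 0.1 log2 units, and all counted among the 34. Kirrel3 1431402_at stood at a bound of 1.02 (30th percentile floor), at 1.94 without a floor and at 1.15 with the 25th percentile added. Kirrel3 1452728_at stood at 0.31, 0.64 and 0.38 under the same 3 settings, Kirrel3 1441357_at at 0.56 with no floor and 0.30 with the 25th percentile added, and Kirrel 1423015_at at 2.43 and 0.33. Members at least 1.5-fold apart then numbered 1, 3 and 1 (30th percentile floor, no floor, 25th percentile added) and members at least 2-fold apart 1, 2 and 1, in place of 0. All of these were Kirrel or Kirrel3 probe sets under the main floor. No share of all probe sets or genes was computed under the alternatives, so these counts and the list counts below have no background. Trpc6 was under the 70th percentile floor. The member median turned to 0.0302 with no floor, 0.0237 with the 25th percentile added and 0.0148 centred on podocyte markers, a choice made after seeing the data. The adaptor and kinase median was 0.0356 without probe sets that may match several transcripts and 0.0364 when a gene took the middle value of its probe sets. The paralogue median was 0.0243 with the 25th percentile added. Paralogues at least 1.5-fold apart numbered 1 without centring, 2 with the 30th percentile floor, 3 without a floor and 3 with the 25th percentile added, in place of 0, and adaptors and kinases 1 without probe sets that may match several transcripts. The junction partner median was -0.0629 without centring, -0.0393 with quantile normalization, -0.0281 with loess, -0.0099 (30th percentile floor), -0.0098 without a floor and -0.0164 with the 25th percentile added. The TRPC6 signalling median was -0.0279 without centring. Causes were not tested beyond what each setting changes by its construction. No paired analysis was possible because each diet has 1 array.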
